A study of Mus musculus with 2 samples.

Results

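The genes described here build and carry ligands for selectins, the adhesion receptors that catch T cells from flowing blood, and they comprise Selplg, Cd44 and 6 glycosyltransferases (Fut4, Fut7, Gcnt1, St3gal4, St3gal6 and B4galt1). They were chosen by gene symbol from a list drawn up with earlier results of these data known, and all 8 were found among the 41592 genes of the deposited table. Transcript levels had been measured by RNA-seq in CD4+ T cells of C57BL/6 mice aged 6 to 8 weeks, taken from spleens and lymph nodes. Each mouse carried the Foxp3 dCNS1-Cre and R26-YFP alleles, so Cre was driven by Foxp3 regulatory DNA without CNS1, a conserved noncoding element of the locus, and YFP marked cells in which Cre had acted together with their progeny. YFP-positive cells without Thy1.1 (Thy1.1-) and with it (Thy1.1+) were sorted and gave 1 library each, and the sources used here do not give the number of mice behind either. The aim stated for the series is a comparison of regulatory T (Treg) cells of thymic origin and precursors of exFoxp3 cells, but one marker pair is written for both, so sorting markers name the populations here. Single libraries leave replicate error unknown, and no difference carries a p-value.

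A selectin ligand is a glycan carried by a protein scaffold. On effector T cells the main scaffold is P-selectin glycoprotein ligand-1, encoded by Selplg, and CD44, a receptor for hyaluronan, can carry E-selectin ligands as well. A core 2 enzyme (Gcnt1) starts a branch on an O-glycan, a galactosyltransferase (B4galt1) extends it, a sialyltransferase (St3gal4 or St3gal6) caps it, and a fucosyltransferase (Fut7 or Fut4) completes the sialyl Lewis x structure that selectins bind. Naive T cells carry Selplg protein yet bind selectins poorly, and the step that changes on activation in mouse T cells is mainly the induction of Fut7 and Gcnt1.

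Levels are given in FPKM, fragment counts scaled to gene length and library total, and every difference is the Thy1.1- value less the Thy1.1+ value. Whole reads behind the values were recovered, from 18536339 counted reads in the Thy1.1- library and 18600581 in the Thy1.1+ library. Brackets give 95% intervals from those reads, which cover counting error only. In bulk RNA, fewer cells with a transcript and less of it per cell cannot be told apart. A gene was tested when its mean FPKM was at least 1 and was called when log2(FPKM + 1) differed by at least 1, a 2-fold rule on a scale that shrinks differences at low levels. A gene under 1 FPKM in either library can thus be tested through its level in the other alone. This held for Fut7, Hmmr, Itgam, Klrb1c, Hbb-bs and some proliferation genes, all called below.

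Both libraries held the transcripts of CD4+ T cells with Treg genes, with all 8 T cell and Treg markers, Cd3e, Cd4 and Foxp3 among them, between 98.8 and 1156 FPKM. Il2ra, the high-affinity interleukin-2 receptor chain of Treg cells, was called lower, at 98.8 against 205 FPKM, a ratio of 0.482 (0.466 to 0.499). Most markers of other cells lay under 1 FPKM, but Xbp1, Bst2, Pecam1 and Cst3 lay between 50.1 and 161 FPKM. Of 12 myeloid markers 9 lay under 1 FPKM in both libraries, and their summed level was 78.9 FPKM in the Thy1.1- and 61.6 FPKM in the Thy1.1+ library, most of it Cst3. The neutrophil genes Ly6g, Csf3r, S100a8 and S100a9 were all under 1 FPKM, whereas Itgam, an integrin chain found on myeloid cells and some T cells, was called higher at 4.17 against 0.272 FPKM, a ratio of 15.3 (9.10 to 27.8). Summed levels were 15.1 against 9.89 FPKM for 10 B cell markers, 6.58 against 4.34 FPKM for 6 natural killer cell markers, and 4.78 against 4.49 FPKM for the CD8 genes Cd8a and Cd8b1. Of the 3 tested B cell markers, Cd22 had a ratio of 2.15 (1.67 to 2.78), Cd79b 1.62 (1.25 to 2.11) and Cd79a 0.788 (0.519 to 1.19). The natural killer cell markers did not move together. Klrb1c was called higher at a ratio of 4.68 (2.48 to 9.60), Gzma had a ratio of 3.79 (1.78 to 8.99), Eomes a ratio of 0.743 (0.576 to 0.955), and Ncr1 was at 0 in the Thy1.1- library. The sums were 146 against 165 FPKM for 7 plasma cell markers, nearly all of it Xbp1 and with Ighg1 at 0 in the Thy1.1+ library, and 118 against 88.0 FPKM for 8 dendritic cell markers, led by Bst2. They were 9.96 against 13.9 FPKM for 7 erythroid and platelet markers, with Hbb-bs called lower at 0.747 against 2.51 FPKM and Ppbp at 0 in the Thy1.1+ library, and 87.5 against 64.8 FPKM for 8 stromal and endothelial markers, nearly all of it Pecam1. The 2 of these 8 that were tested had ratios of 1.34 (1.27 to 1.40) for Pecam1 and 2.49 (1.51 to 4.23) for the low Col1a1. All 10 proliferation genes were called higher in the Thy1.1- library, at a summed 106 against 21.8 FPKM, where 1.93% of all tested genes were called higher. The part of these markers in the differences below was not tested.

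Of the 8 genes, 7 were tested and 6 of these were higher in the Thy1.1- library, with Fut7 past 2-fold and St3gal4 on the other side of 0. Their median difference was 0.53 on the log2(FPKM + 1) scale, against 0.03 over all 12820 genes tested. The 2-fold rule called 1 of the 7 higher and none lower, against 3.08% of all tested genes called in either direction, 1.93% higher and 1.15% lower. The called gene, Fut7, was under 1 FPKM in the Thy1.1+ library and was tested only through its Thy1.1- level. A difference above 0 was found in 55.1% of all tested genes. Counting intervals lay above 1 for 6 of the 7 and below 1 for 1, which among the 12797 tested genes with reads in both libraries was so for 27.4% and 19.2%. Because the list was chosen with results known, these comparisons with all genes describe it and do not test it.

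**Figure D1:**
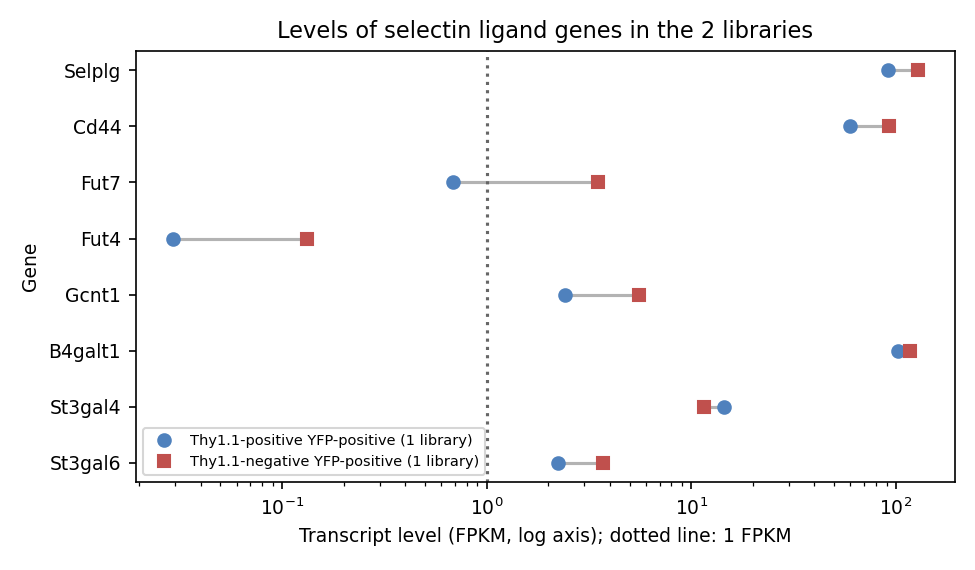
Transcript levels (FPKM, log axis) of the 8 genes in the Thy1.1+ library (circles) and the Thy1.1- library (squares), 1 library each, with no error bars. Selplg, B4galt1 and Cd44 sit near 100 FPKM on the axis, Fut7 crosses the dotted line at 1 FPKM from 0.686 to 3.52 FPKM, and St3gal4 is the gene with its square left of its circle.

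The order of levels was nearly the same in both libraries. In the Thy1.1- library Selplg was highest, followed by B4galt1, Cd44, St3gal4, Gcnt1, St3gal6, Fut7 and Fut4. In the Thy1.1+ library B4galt1 stood above Selplg and the other places were the same. Counting intervals of neighbours overlapped for St3gal6 and Fut7 in the Thy1.1- library, at 2.87 to 4.66 and 2.84 to 4.32 FPKM, and for Gcnt1 and St3gal6 in the Thy1.1+ library, at 2.06 to 2.83 and 1.61 to 3.02 FPKM. Elsewhere in both orders the intervals of neighbours did not overlap. They do not cover the gene length that each level was divided by, on which the order between genes also rests. Per unit of length, the scaffolds and the galactosyltransferase were thus far above the fucosyltransferases and the core 2 enzyme. Fut7 reached 2.76% of the level of Selplg in the Thy1.1- library and 0.748% in the Thy1.1+ library.

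Selplg, the scaffold, stood at 128 FPKM in the Thy1.1- library (6158 reads) and 91.8 FPKM in the Thy1.1+ library (4447 reads). The Thy1.1- library was thus 1.39-fold higher (1.34 to 1.44), within the 2-fold rule. Cd44, also a standard marker of antigen-experienced T cells, stood at 92.1 FPKM with 4769 reads and at 59.5 FPKM with 3089 reads. Its ratio was 1.55 (1.48 to 1.62), and 659 of the 12820 tested genes, 5.14%, had a larger log2(FPKM + 1) difference. Gene-level values hold no information on Cd44 splice variants.

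Fut7 encodes the fucosyltransferase that adds the last sugar of sialyl Lewis x in mouse leukocytes. It stood at 3.52 FPKM with 92 reads in the Thy1.1- library and at 0.686 FPKM with 18 reads in the Thy1.1+ library. This 5.13-fold difference (3.07 to 9.04) was the widest of the 7, at 1.42 on the log2(FPKM + 1) scale, and 108 tested genes, 0.842%, had a larger one. Its level was low in both libraries, and among the 3891 tested genes with a mean FPKM between 1 and 5, 3.6% were called higher, against 1.2% of the 8929 with a mean of at least 5. With a pseudocount of 5 its difference was 0.58 and no longer passed the 2-fold rule. Fut4, a second fucosyltransferase able to make sialyl Lewis x, was nearly silent, at 0.133 FPKM with 9 reads and 0.0293 FPKM with 2 reads. The ratio of 4.52 had an interval from 0.935 to 42.9, so a difference in Fut4 was not detectable at this depth, and with a mean under 1 FPKM the gene was not tested.

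Gcnt1 makes the core 2 branch on which the ligand is built. It stood at 5.55 FPKM with 354 reads and at 2.42 FPKM with 155 reads, a ratio of 2.29 (1.89 to 2.79). On the log2(FPKM + 1) scale the difference was 0.94, just inside the rule, and 289 tested genes, 2.25%, had a larger one. Gcnt1 was called with a pseudocount of 0.1, at 1.16, and after scaling to the upper quartile, also at 1.16. The counting intervals of Fut7 and Gcnt1 did not overlap, so the ratio of Fut7 exceeded that of Gcnt1 beyond counting error in these libraries. Fut7 stood at 63.4% of the Gcnt1 level in the Thy1.1- library and at 28.3% in the Thy1.1+ library.

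**Figure D2:**
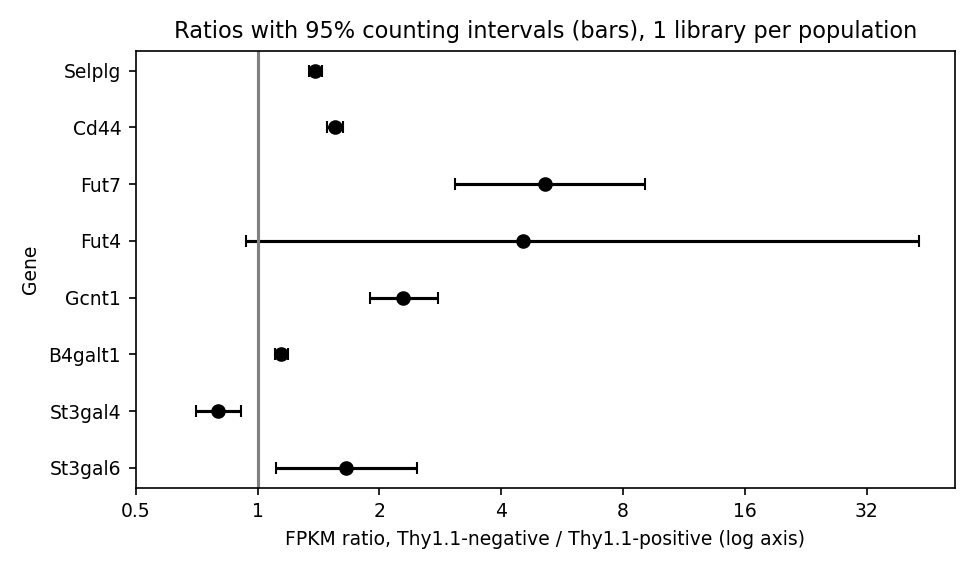
FPKM ratio of the Thy1.1- over the Thy1.1+ library (log axis) for each of the 8 genes; points are single-library ratios and bars are 95% counting intervals. Fut7 at 5.13 lies farthest right, Gcnt1 lies at 2.29, and Fut4 at 4.52 has the only bar that reaches 1. The bars of all other genes are clear of 1, with St3gal4 at 0.800 left of it.

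B4galt1 encodes the galactosyltransferase that extends the branch with galactose. It stood at 118 FPKM with 5877 reads in the Thy1.1- library and at 103 FPKM with 5157 reads in the Thy1.1+ library, a ratio of 1.14 (1.101 to 1.187). St3gal4 and St3gal6 encode the sialyltransferases that cap the branch before fucose is added, and they lay on opposite sides of 1. St3gal4 stood at 11.6 FPKM with 436 reads and at 14.5 FPKM with 547 reads, a ratio of 0.800 (0.704 to 0.909). St3gal6 stood at 3.69 FPKM with 69 reads and at 2.24 FPKM with 42 reads, a ratio of 1.65 (1.11 to 2.48). The intervals of these sialyltransferases did not overlap. Both overlap a gene on the other strand, and whether the counting used strand is not given in the sources used here, so reads of partners cannot be told apart. The noncoding 4930581F22Rik covers 14.1% of the annotated exon bases of St3gal4 and had a like ratio, 0.798 (0.654 to 0.974), at 10.3 and 12.9 FPKM. Dcbld2 covers 26.0% of those of St3gal6 and stood at 1.23 and 0.487 FPKM, a ratio of 2.54 (1.46 to 4.57).

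The sequences just before the annotated start show what lies upstream of Fut7 and Gcnt1, which had the widest differences of the 7, and of St3gal4, the gene on the other side of 0. Each is 250 bases from RefSeq on GRCm38.p6, 5′ to 3′ on the gene's strand. The first listed start was used for Fut7 and for Gcnt1, which have several. Fut7 is read from chr2:25422992-25423241 on the plus strand, Gcnt1 from chr19:17372845-17373094 on the minus strand and St3gal4 from chr9:35116865-35117114 on the minus strand. Capitals mark CACCC or its reverse complement GGGTG, the core of sites for Krüppel-like factors.
Fut7: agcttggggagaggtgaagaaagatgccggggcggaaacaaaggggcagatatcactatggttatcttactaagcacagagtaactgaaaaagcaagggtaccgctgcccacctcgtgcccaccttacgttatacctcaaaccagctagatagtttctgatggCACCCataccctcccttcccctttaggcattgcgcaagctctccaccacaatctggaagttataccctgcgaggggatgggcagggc
Gcnt1: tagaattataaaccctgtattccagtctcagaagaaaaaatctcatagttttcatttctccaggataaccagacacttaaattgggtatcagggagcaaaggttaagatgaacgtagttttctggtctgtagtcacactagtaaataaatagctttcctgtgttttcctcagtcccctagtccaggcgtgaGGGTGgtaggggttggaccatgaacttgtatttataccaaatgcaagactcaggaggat
St3gal4: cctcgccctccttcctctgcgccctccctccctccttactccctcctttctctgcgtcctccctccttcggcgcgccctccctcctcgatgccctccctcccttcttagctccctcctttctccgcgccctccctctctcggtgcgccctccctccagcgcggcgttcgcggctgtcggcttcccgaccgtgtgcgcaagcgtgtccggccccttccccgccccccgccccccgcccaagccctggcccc
Fut7 held 1 CACCC, beginning 87 bases before the start, and Gcnt1 held 1 on the opposite strand, 59 bases before it. The St3gal4 window, 72.8% G and C against 52.4% for Fut7 and 40.4% for Gcnt1, held none. Of the windows not printed, those of Cd44 and of the first listed St3gal6 start also held none, and the rest held at least 1. Cd44 and St3gal6 were higher in the Thy1.1- library and St3gal4 was lower. A link between the core and direction was not tested. That core occurred in 52.0% of the 32851 upstream windows of the table, so its presence describes these letters and no site. Neither the T-box half-site TCACACC, found in 3.33% of all windows, nor the STAT motif TTCNNNGAA, found in 7.02%, occurred in these 3 windows on either strand, and neither shares bases with a CACCC marked here. Of the windows not printed, that of B4galt1 held 1 STAT motif. Gene-level values do not tell which start was in use. The table held 11 windows for 7 of the 8 genes, and Selplg is named here without one.

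**Figure D3:**
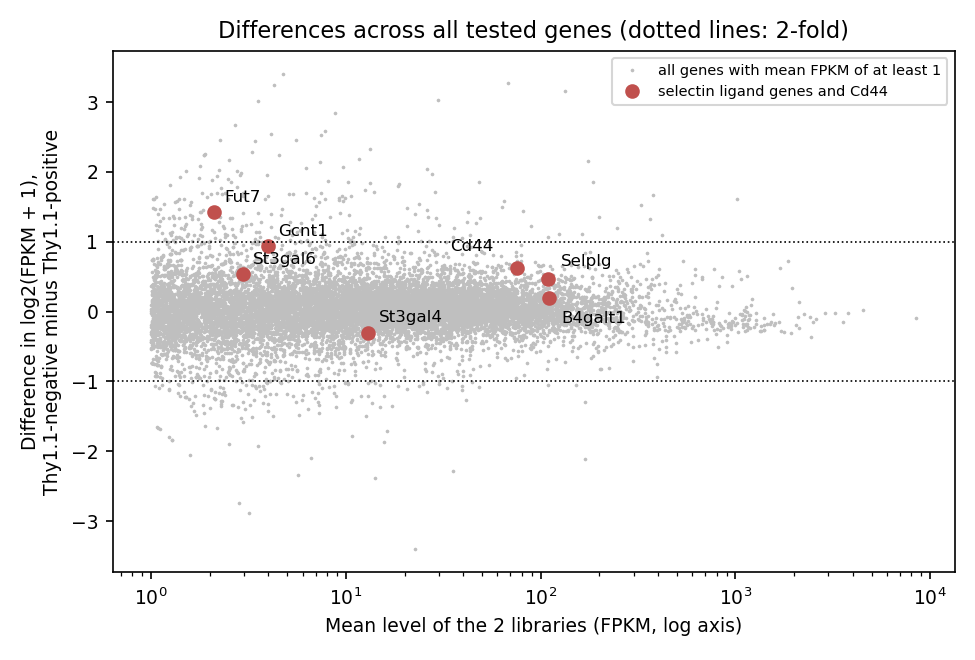
Difference in log2(FPKM + 1), Thy1.1- less Thy1.1+, against the mean level in FPKM (log axis) for the 12820 tested genes (grey) and the 7 tested selectin ligand genes (large points); dotted lines mark 2-fold. Fut7 lies above the upper line at 1.42, Gcnt1 just under it at 0.94, and St3gal4 below 0 at -0.30.

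Within their enzyme families these genes held unequal places. Fut7 made up 95.1% of the summed level of Fut4, Fut7 and Fut9 in the Thy1.1- library and 92.1% in the Thy1.1+ library, and Gcnt1 made up 97.5% and 96.1% of Gcnt1, Gcnt3 and Gcnt4. The summed level of the fucosyltransferases was 3.70 against 0.745 FPKM, and that of the core 2 enzymes 5.69 against 2.52 FPKM. B4galt1 held 59.5% and 61.3% of the 7 beta-1,4-galactosyltransferases, so its share differed little between the libraries. The alpha-2,3-sialyltransferases were shared more evenly. St3gal4 ranked below St3gal1 and St3gal2 in both libraries, with 13.7% and 19.7% of the family sum, and St3gal6 held 4.35% and 3.03%. St3gal1, which caps core 1 and so competes with Gcnt1 for its substrate, stood at 31.9 against 20.4 FPKM, a ratio of 1.56 (1.47 to 1.66). Set against this competitor, Gcnt1 stood at 17.4% of its level in the Thy1.1- library and at 11.9% in the Thy1.1+ library.

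**Figure D4:**
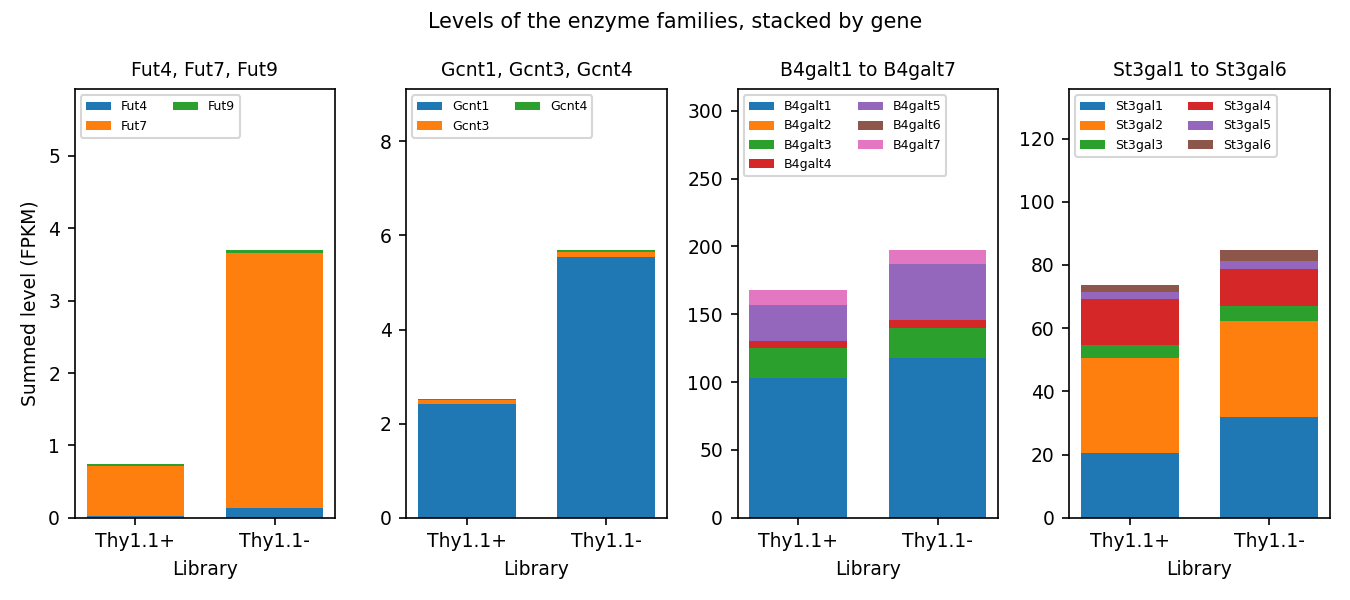
Summed FPKM of each enzyme family, stacked by gene, in the Thy1.1+ (left bar) and Thy1.1- library (right bar); each panel has its own axis starting at 0. The Fut4, Fut7 and Fut9 bar goes from 0.745 to 3.70 FPKM and is nearly all Fut7, whereas the B4galt bars, at 168 and 197 FPKM, and the St3gal bars, at 73.7 and 84.8 FPKM, differ little.

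The other genes of the pathway were described from a list of 131, of which 91 were tested. Only 3 passed the 2-fold rule, all higher in the Thy1.1- library, which is 3.30% against 1.93% of all tested genes. With a pseudocount of 0.1 Selp was also called, as lower, and after scaling to the upper quartile Lamp2 was also called, as higher. The median difference of the 91 was 0.06, with 54 above 0 and 37 below, where 55.1% of all tested genes lay above 0. Scaled to the upper quartile, which moved the median of all tested genes by 0.23, 74 of the 91 lay above 0 and 17 below. Under that scaling 82.7% of all tested genes lay above 0. Glg1, Lamp1, B4galt7, Foxo3 and Il12rb2 were among the 20 pathway genes that turned sign. The 3 called genes were Hmmr, Tbx21 and Prdm1, and none of them is a glycosyltransferase.

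Among the selectins, Selp, the P-selectin of platelets and endothelium, was low, at 0.707 FPKM with 18 reads and 2.23 FPKM with 57 reads. Its ratio was 0.317 (0.176 to 0.546), and its log2(FPKM + 1) difference of -0.92 was inside the rule. Of 12 other glycoprotein scaffolds 6 were tested and none was called. Spn, the sialoglycoprotein CD43 that can also carry selectin ligands, had a ratio of 1.43 (1.36 to 1.49) at 169 against 118 FPKM. Lamp2, a lysosomal membrane protein, had the highest difference of that list, 0.92, at 20.4 against 10.3 FPKM. The phosphatase Ptprc, which is CD45, had a ratio of 1.16 (1.14 to 1.18), and Glg1, known as E-selectin ligand-1, and Lamp1 had ratios of 0.985 and 0.972, whose intervals included 1. Cd24a, a scaffold for P-selectin, had the lowest difference, -0.59, at 1.85 against 3.29 FPKM.

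None of the tested enzymes that act before and beside Gcnt1 was called. Among those under a mean of 1 FPKM, and so not tested, the competing core enzyme St6galnac1 had a ratio of 2.76 (1.39 to 5.87) from 33 and 12 reads, and the galactosyltransferase B4galt6 a ratio of 2.84 (1.07 to 8.81) from 17 and 6 reads. The lactosamine-extending enzyme B3gnt8, also not tested, went the other way, at a ratio of 0.632 (0.399 to 0.988) from 34 and 54 reads. Of 11 that start O-glycans or make core 1, 9 were tested, with differences from -0.35 for Galnt11 to 0.25 for Galnt10. The core 1 synthase C1galt1 had a ratio of 1.06 (0.991 to 1.13). Of 11 core 2 and competing core enzymes 6 were tested, from -0.56 for St6galnac3 to 0.62 for St3gal1. Of 12 lactosamine-extending enzymes 7 were tested, from -0.06 for B4galt7 to 0.61 for B4galt5, a galactosyltransferase at 41.7 against 27.0 FPKM.

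No other fucosyltransferase or sialyltransferase passed the rule. Of 8 further fucosyltransferases 5 were tested. Fut8, which adds fucose to the core of N-glycans, had the highest difference, 0.69, at 16.2 against 9.65 FPKM and a ratio of 1.68 (1.51 to 1.87). Pofut1, which adds fucose to Notch receptors, had the lowest, -0.38, at 17.5 against 23.1 FPKM. Among 10 further sialyltransferases 8 were tested, from -0.63 for St8sia6 at 17.1 against 27.0 FPKM to 0.65 for St6galnac6 at 6.77 against 3.94 FPKM.

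Sulfation and sugar supply were nearly level. Of 13 sulfation genes 7 were tested and none called. Tpst2, a tyrosine sulfotransferase of the kind that sulfates the selectin-binding end of PSGL-1, had the highest difference, 0.46, at 92.6 against 67.3 FPKM, and its relative Tpst1 the lowest, -0.41, at 3.85 against 5.46 FPKM. Among 17 genes that supply sugar donors 16 were tested, and the lowest difference was -0.76, for Uap1. Uap1, which makes the donor of N-acetylglucosamine, stood at 39.9 against 68.1 FPKM. Slc35c1, a Golgi carrier of GDP-fucose, the donor that Fut7 uses, had a ratio of 1.36 (1.23 to 1.51), and was picked out here after its values were seen.

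**Figure D5:**
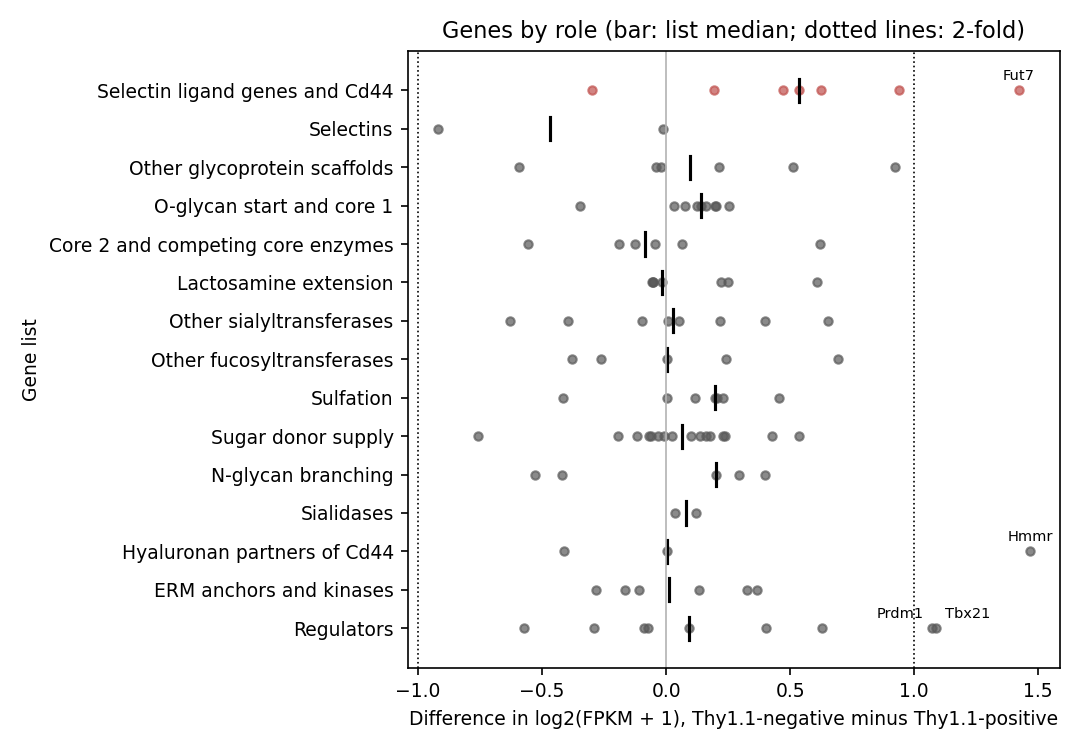
Differences in log2(FPKM + 1), Thy1.1- less Thy1.1+, for each tested gene of the selectin ligand set (top row) and of 14 lists of related genes; bars are list medians and dotted lines mark 2-fold. The top row has its median at 0.53, and Fut7, Hmmr, Tbx21 and Prdm1 are the labelled genes past the upper line.

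Of 9 regulators known to act on these genes or on T cell homing, 2 were called, both higher, against 1.93% of all tested genes called higher. This list too was chosen with earlier results known, so the count describes it and does not test it. Tbx21 encodes T-bet, which promotes selectin ligand formation in mouse Th1 cells, and stood at 7.57 FPKM with 349 reads and at 3.03 FPKM with 140 reads, a ratio of 2.50 (2.05 to 3.07). Prdm1, which encodes the effector regulator Blimp-1, stood at 15.0 against 6.62 FPKM, a ratio of 2.27 (2.02 to 2.55). Il12rb1 and Stat4, parts of the interleukin-12 pathway, had ratios of 1.595 (1.435 to 1.774) and 1.34 (1.21 to 1.47), while Il12rb2, the other chain of the receptor, was near 1.5 FPKM in both libraries, at 1.48 and 1.61. Klf2, which keeps T cells recirculating through lymphoid tissue, had a ratio of 0.815 (0.780 to 0.852). Foxo1, which acts upstream of Klf2, had a ratio of 1.07 (1.05 to 1.09) and Foxo3 a ratio of 0.940 (0.889 to 0.994). Foxp3 itself stood at 158 against 237 FPKM.

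Genes most like Fut7 over the 2 libraries were sought among 10656 other tested protein-coding genes, by distance between their log2(FPKM + 1) values. The nearest were Cdca5 at 3.47 and 0.639 FPKM (distance 0.044), Ncapg at 3.70 and 0.778 FPKM (distance 0.095) and Stom at 3.70 and 0.829 FPKM (distance 0.13). For Cd44 they were Esyt1 at 89.2 and 59.9 FPKM (distance 0.047), Tpi1 at 94.5 and 56.9 FPKM (distance 0.072) and Cenpa at 86.8 and 59.6 FPKM (distance 0.084). Likeness over 2 libraries rests on 2 values per gene.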

How the data were processed

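The authors deposited FPKM values per Ensembl gene, 1 column for each of the 2 libraries, and the letters P and N in their names were taken to mean presence and absence of Thy1.1. Per the submitters' processing notes, Bowtie2 2.2.3, TopHat2 2.0.12, HTSeq 0.6.1 and the mouse build mm9 were used. The sources used here give no settings, annotation or filters. Per the labels' protocols, cells were bead-enriched for CD4, sorted to a purity typically above 97%, and a NEBNext Ultra kit made libraries of 3 µg RNA each.

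Symbols came from the GENCODE M21 names, which matched 96.8% of the 41592 IDs. FPKM being normalised, no count model was used. For the 23442 genes above 0 in both libraries the ratio of values was written as a ratio of whole numbers times 1.003. The search ran until these matched, so agreement within a tolerance of 1e-09 was fixed in advance and is no check. Library totals were those that made the implied length of the most genes, 1212, equal to their annotated mean transcript length, which assumes that this was the length used. Of the multiples of a gene's smallest whole numbers, the one whose whole implied length came nearest to that mean was taken. The recovered reads of these 23442 genes summed to 100.1% of the totals in both libraries. A part should not exceed its total, so some recovered reads or the totals are not exact. For 3 of the 8 genes (Cd44, Fut7 and B4galt1) that length and the mean differed by under 1 base, and for the other 5 the reads, and so the intervals, rest on the nearest multiple. Ratio intervals are exact Clopper-Pearson and level intervals exact Poisson, at 95%, and hold no variation from mice, sorting or library making. The code was tested on simulated data in which each gene's length was its rounded annotated mean. That test could not check the reads of the 5 genes whose implied length differed.

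The named genes were the 8 genes, all regulators, tested selectins and scaffolds, each list's called genes and its highest and lowest difference, and the nearest genes by distance. Slc35c1, C1galt1, the untested St6galnac1, B4galt6, B3gnt8 and Neu4, and some marker genes were added later, outside this rule. Some genes that this rule names are not reported here. Members and lists were chosen with earlier results of these data known. Alternatives were other pseudocounts, filters, fold rules and scalings. Python 3.11.15, pandas 2.3.3, numpy 2.4.6, scipy 1.17.1 and matplotlib 3.10.9 were used.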

Additional observations from a re-analysis of the deposited data

How the results depend on the processing

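No paired analysis was possible because each population has 1 library, and for the same reason no library could be left out. The 6 genes above 0 and St3gal4 below 0 kept their signs under every scaling tried. A pseudocount cannot change a sign. The number of the 7 tested genes past the rule was 2 with a pseudocount of 0.1 and after scaling to the upper quartile (Fut7 and Gcnt1), 0 with a pseudocount of 5, 0 of the 4 left by a mean FPKM filter of 5, 3 at 1.5-fold (Cd44, Fut7 and Gcnt1) and 0 at 4-fold. Their median difference was 0.33 at a mean FPKM of at least 5, where Fut7, Gcnt1 and St3gal6 drop out, and 0.74 after scaling to the upper quartile, which is 0.48 from the median gene against 0.50 as deposited. After that scaling St3gal4 stood at -0.06, which is -0.32 from the median gene. Related genes past the rule numbered 4 with a pseudocount of 0.1, where Selp was called lower, 4 after scaling to the upper quartile, where Lamp2 was called higher, 0 with a pseudocount of 5, 13 at 1.5-fold (9 higher and 4 lower) and 0 at 4-fold, against 3. All genes past the rule numbered 695 with a pseudocount of 0.1, 91 with a pseudocount of 5, 167 at a mean FPKM of at least 5, 1238 at 1.5-fold and 40 at 4-fold, against 395. Scaling to the upper quartile changed the split of all calls from 247 higher and 148 lower to 412 and 90. The cause of these shifts was not tested beyond the fewer genes that a stricter filter or rule leaves. Depth limits Fut4 most, with 9 and 2 reads, then Fut7, with 92 and 18.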

Other observations

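Of the tested genes that branch N-glycans, remove sialic acid, make or bind hyaluronan or anchor Cd44 to actin, 1 was called, Hmmr. Among all tested genes 1.93% were called higher. Hmmr, a second hyaluronan receptor that is also a spindle protein of dividing cells, gave 68 reads (2.11 FPKM) from Thy1.1- cells and 4 reads (0.124 FPKM) from Thy1.1+ cells, a ratio of 17.1 (6.37 to 64.4). All 10 proliferation genes were called in the same direction. Has3, a hyaluronan synthase, had the lowest difference of the 3 tested hyaluronan genes, -0.41, at 0.909 against 1.54 FPKM. Of 6 genes that branch N-glycans 5 were tested, from -0.53 for Mgat5, at 35.5 against 51.6 FPKM, to 0.40 for Mgat2, at 25.8 against 19.4 FPKM. The sialidases Neu1 and Neu3 had ratios of 1.03 and 1.098, and both intervals included 1. Neu4, under a mean of 1 FPKM and not tested, had a ratio of 0.264 (0.0771 to 0.731) from 5 and 19 reads. Moesin, encoded by Msn, links Cd44 and PSGL-1 to actin, and stood at 413 against 319 FPKM, the highest difference, 0.37, of 6 genes for such anchors and their kinases. Slk, a kinase of these anchors, had the lowest, -0.28, at 106 against 129 FPKM.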
